A study of Mus musculus with 96 samples.

Results

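The genes described here encode 10 transporters that carry amino acids across the plasma membrane: Slc7a11, Slc7a5, Slc3a2, Slc7a1, Slc7a3, Slc38a2, Slc1a4, Slc1a5, Slc6a9 and Slc7a6. They were taken by gene name from a table of 54150 rows, of which 54146 were mouse genes and 4 were transgenes, and all 10 were found. RNA was sequenced from C2C12 cells, a mouse myoblast line that fuses into myotubes when serum is lowered, in 96 samples of 35 conditions with 2 or 3 samples each. The experiment asked how cells at different stages of muscle differentiation respond to defects of the mitochondrial respiratory chain and of ATP synthase, and whether enzymes that oxidize NADH alter that response.

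Proliferating myoblasts in 10% dialyzed serum carried a stable, doxycycline-inducible transgene. This was luciferase in control cells, LbNOX (a bacterial enzyme that oxidizes NADH to NAD+ and makes water) in the cytosol, mitoLbNOX (the same enzyme sent to mitochondria) or NDI1 (a yeast NADH dehydrogenase that works in the inner mitochondrial membrane in place of complex I). All myoblast lines, controls included, received 300 ng/ml doxycycline. They were treated for 10 h with DMSO, 0.5 µM piericidin (an inhibitor of complex I), 0.5 µM antimycin (complex III) or 1 µM oligomycin (ATP synthase), and in a separate set for 48 h with DMSO or 20 µg/ml chloramphenicol, which blocks mitochondrial protein synthesis and was given with uridine. NDI1 myoblasts received DMSO or piericidin, and mitoLbNOX myoblasts DMSO, piericidin or antimycin. Untransduced cells were held for 24 h in 2% horse serum, which gave post-mitotic cells that received DMSO, piericidin or oligomycin, or for 4 days, which gave differentiated myotubes. Myotubes received DMSO, the 3 inhibitors, 0.5 µM BAM15 (an uncoupler, which lets protons back across the inner membrane without ATP synthase), oligomycin with piericidin or with BAM15, or DMSO or oligomycin under 5% oxygen. A further set of myotubes carried an adenovirus for GFP, or for GFP with LbNOX, and received DMSO, piericidin or oligomycin. Treatments of the post-mitotic cells and of all myotubes lasted 10 h. Myotubes under 5% oxygen were moved there the night before treatment and stayed there, so their low oxygen lasted longer than 10 h. The groups of 2 were those of NDI1, of the 48 h set and of the GFP virus. All results are on a single immortalized line, the enzyme lines were antibiotic-selected populations, and NAD(H) itself was not measured in these libraries.

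Amino acids enter a mammalian cell through families of solute carriers with overlapping substrates. Slc3a2 is the heavy chain CD98, a glycoprotein that brings several light chains to the surface as heterodimers. Among these light chains, Slc7a5 (LAT1) exchanges large neutral amino acids such as leucine, Slc7a6 exchanges cationic for neutral amino acids, and Slc7a11 (xCT) takes up cystine in exchange for glutamate, which supplies cysteine for glutathione. Slc7a1 and Slc7a3 are carriers for arginine and lysine that work without the heavy chain, Slc38a2 (SNAT2) takes up small neutral amino acids with sodium, Slc1a4 and Slc1a5 exchange alanine, serine, cysteine and, for Slc1a5, glutamine, and Slc6a9 (GlyT1) takes up glycine. When the kinases of the integrated stress response phosphorylate eIF2 alpha, the transcription factor ATF4 is translated and, with C/EBP family partners, binds composite elements in genes of amino acid supply, several of these carriers among them.

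Start-site sequence is shown for the genes in which a composite element of that kind (letters TGATGNAA, either strand) was found, because their levels are followed below. RefSeq promoter windows on GRCm38.p6, from 250 bases before to 50 bases after each start, were available for 7 of the 10 genes in 11 windows. The letters occurred in 2 of these windows, in Slc7a11 and Slc1a4, and in 3.97% of all 32851 promoter windows. The Slc7a11 window held 2 copies on opposite strands, separated by 11 bases. The capitals in the sequences below mark the matches, each on the strand of the gene, with the stretch of Slc7a11 at chr3:50443614-50443733 (minus strand) and that of Slc1a4 at chr11:20332699-20332728 (minus strand), where the match spans the start.
Slc7a11: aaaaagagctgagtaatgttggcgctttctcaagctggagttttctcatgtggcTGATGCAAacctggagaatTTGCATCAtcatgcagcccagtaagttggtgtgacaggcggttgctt
Slc1a4: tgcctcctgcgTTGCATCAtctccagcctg
The core of the antioxidant response element that NRF2 binds (TGACNNNGC, either strand) was found in 6 windows of 4 genes, Slc38a2, Slc6a9, Slc7a1 and Slc7a6, and in 12.4% of all windows, and the E-box CACGTG in 0 windows of these genes and 7.15% of all. No match of a pattern overlapped a match of another, and a match is a description of the window, not of binding.

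Library totals lay between 6458295 and 15366745 estimated counts, with a median of 10336589. Levels are given on the usual CPM scale, which expresses the count of a gene relative to the total of its library, with totals corrected for library composition by TMM over all 96 libraries. The sign ± stands for the SD after a level and for the standard error after a log2 fold change or a difference of log2 fold changes. Transgene reads were found only in their carriers, with 736 to 2574 counts of luciferase in 16 libraries, 2189 to 153436 of LbNOX in 34, 372 to 434 of NDI1 in 4 and 20826 to 97928 of GFP in 15, and 0 counts elsewhere. The 4 markers of proliferating cells summed to between 561 and 1130 CPM in myoblasts, 147 and 200 in cells after 24 h of low serum and 21 and 125 in myotubes, and the 6 myotube markers to between 10.2 and 92.3, 10600 and 11300, and 10000 and 13900 CPM. The 5 markers of blood, endothelial, epithelial, fat and glial cells summed to at most 4.95 CPM in any library. No 2 replicates held identical values or differed by as little as sampling noise.

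In control myoblasts with DMSO the carriers differed widely in level. Per kilobase of transcript, Slc38a2 was highest with 78.8 ± 2.25 CPM (SD, n = 3), followed by Slc3a2 with 61.3 ± 1.70, Slc1a4 with 16.9 ± 1.38 and Slc7a6 with 11.5 ± 0.464. The neighbours Slc1a5 with 8.90 ± 0.868 and Slc7a1 with 7.94 ± 0.904 CPM per kilobase lay within each other's spread. Slc6a9 at 4.55 ± 0.111, Slc7a5 at 2.99 ± 0.0874 and Slc7a11 at 0.394 ± 0.136 CPM per kilobase came next, and Slc7a3 was lowest with 0.0984 ± 0.0714. The sodium-coupled carrier Slc38a2 and the CD98 heavy chain were thus the most abundant transcripts, and the light chains that need the heavy chain were far below it. Only Slc7a3 was close to the limit of detection, with 5, 1 and 3 counts in the 3 DMSO libraries. It passed the filter on low counts (at least 16 in every replicate of at least 1 condition) in the myoblast comparisons through treated groups in which it is high, and no DMSO group of any line or state reached that count. A test of it would therefore rest on the same treated libraries, so Slc7a3 is described by its counts, with no test, and the counts of carriers called and their medians are over the other 9.

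The main comparison asked what 10 h of each inhibitor did in proliferating control myoblasts. All 9 carriers tested rose with piericidin, 8 of 9 with antimycin and 8 of 9 with oligomycin. None fell. Over all 11981 genes tested, 61.7% were called with piericidin (30.9% higher), 63.2% with antimycin (32.1% higher) and 50.8% with oligomycin (24.5% higher), by edgeR's quasi-likelihood test with Benjamini-Hochberg adjusted p under 0.05. The median log2 fold change of the 9 carriers was 2.13 with piericidin, 1.79 with antimycin and 1.89 with oligomycin, against -0.004, -0.005 and -0.015 over all genes tested. Since the labels do not say that replicates were separate cultures, p-values measure the spread between these samples, which may be technical.

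The CD98 heavy chain Slc3a2 (chromosome 19, 8706882 to 8723369, minus strand, GENCODE annotation of GRCm38, as for the positions that follow) stood at 177, 168 and 173 CPM in the DMSO libraries. It reached 1026, 1089 and 1056 CPM with piericidin, 1049.5, 1024 and 1048 with antimycin and 747, 754 and 753 with oligomycin. All treated libraries lay far above all DMSO libraries, and those of piericidin and antimycin overlapped. On the log2 scale the heavy chain rose by 2.65 ± 0.0392 (adjusted p = 3.45e-30) with piericidin, 2.64 ± 0.0392 (adjusted p = 2.26e-30) with antimycin and 2.14 ± 0.0385 (adjusted p = 9.71e-28) with oligomycin. With piericidin it became the most abundant of the 10 per kilobase, at 376 ± 11.2 CPM against 92.9 ± 3.56 for Slc38a2.

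Its light chain Slc7a5 (chromosome 8, 121881150 to 121907694, minus strand), the leucine exchanger, was at 10.5, 10.2 and 10.8 CPM in DMSO. The 3 libraries of each inhibitor held 74.0, 56.6 and 81.3 CPM (piericidin), 58.2, 53.8 and 59.99 (antimycin) and 47.5, 51.9 and 44.2 (oligomycin). No treated library overlapped the DMSO range, and the replicates of piericidin spread most. The log2 fold changes were 2.78 ± 0.132, 2.49 ± 0.132 and 2.20 ± 0.132 (adjusted p = 1.66e-17, 2.24e-16 and 8.15e-15). Slc7a6 (chromosome 8, 106168857 to 106198706, plus strand), which pairs with the same heavy chain, moved little, from 41.6, 45.05 and 43.0 CPM to 55.8, 50.05 and 56.6 with piericidin, 57.5, 64.9 and 56.2 with antimycin and 49.3, 53.2 and 50.5 with oligomycin. Each of these groups lay above DMSO, with log2 fold changes of 0.36, 0.50 and 0.25 and an adjusted p of at most 0.00276, and without the filter on low counts the oligomycin call was lost (adjusted p = 0.108).

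The cystine carrier Slc7a11 (chromosome 3, 49892526 to 50443614, minus strand) was the second lowest per kilobase in DMSO, with 2.41, 3.60 and 4.91 CPM. It held 27.9, 26.0 and 27.9 CPM with piericidin, 12.3, 14.3 and 10.0 with antimycin and 32.2, 32.5 and 30.0 with oligomycin. Again no treated library reached down to the DMSO range, but the antimycin libraries lay below all libraries of the other two inhibitors. Its log2 fold change was 2.94 ± 0.189 with piericidin, 1.79 ± 0.196 with antimycin and 3.13 ± 0.188 with oligomycin (adjusted p = 2.79e-14, 3.6e-09 and 9.74e-15).

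Among the carriers for arginine and lysine, Slc7a1 (chromosome 5, 148327410 to 148399904, minus strand) was at 64.5, 53.2 and 53.3 CPM in DMSO. It rose to 239, 261 and 230.1 CPM with piericidin, 328, 292 and 299.6 with antimycin and 164, 152 and 151 with oligomycin. The 4 groups did not overlap, and antimycin gave the highest values, with log2 fold changes of 2.13 ± 0.0712, 2.47 ± 0.0717 and 1.47 ± 0.0703 (adjusted p at most 4e-17). The related Slc7a3 (chromosome X, 101079210 to 101086020, minus strand) had 5, 1 and 3 counts under DMSO. The piericidin libraries held 43, 39 and 52 counts, those of antimycin 1, 5 and 9 and those of oligomycin 40, 68 and 29. Summed over replicates and corrected for depth, the ratio to DMSO, which had 9 counts in all, was 19.4 with piericidin, 17.4 with oligomycin and 2.16 with antimycin. These ratios rest on few DMSO counts, leave out the spread between replicates and are not a test. The libraries of piericidin and oligomycin lay above all DMSO libraries, and those of antimycin overlapped them.

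Slc1a5 (chromosome 7, 16781340 to 16798274, plus strand), the glutamine exchanger, separated antimycin from the other two inhibitors. It was at 21.9, 26.4 and 25.6 CPM with DMSO and at 23.5, 25.0 and 23.3 with antimycin, ranges that overlapped. With piericidin it stood at 63.0, 66.7 and 60.4 CPM and with oligomycin at 91.9, 91.8 and 87.3. The log2 fold change was 1.396 ± 0.0916 (adjusted p = 4.13e-14) with piericidin and 1.89 ± 0.0913 (adjusted p = 4.92e-17) with oligomycin, and 0.00 ± 0.0949 (adjusted p = 0.999) with antimycin. Its relative Slc1a4 (chromosome 11, 20302180 to 20332713, minus strand), by contrast, rose with each inhibitor, from 63.3, 63.3 and 72.7 CPM to 208, 214 and 209 with piericidin, 174, 181 and 164 with antimycin and 235, 214 and 194 with oligomycin, or 1.69 ± 0.0605, 1.42 ± 0.0603 and 1.70 ± 0.0604 on the log2 scale (adjusted p at most 8.31e-19).

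Slc38a2 (chromosome 15, 96687392 to 96699730, minus strand), the most abundant carrier at rest, moved little. Its DMSO libraries held 379, 359.8 and 362 CPM, those of piericidin 427, 451 and 419, of antimycin 451, 458 and 459 and of oligomycin 361, 346 and 327. The libraries of piericidin and antimycin lay above DMSO and those of oligomycin overlapped it. The log2 fold changes were 0.27 ± 0.0458 (adjusted p = 7.45e-06), 0.36 ± 0.0458 (adjusted p = 7.8e-08) and -0.08 ± 0.0458 (adjusted p = 0.156), so that the oligomycin value did not pass.

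The glycine carrier Slc6a9 (chromosome 4, 117834506 to 117875198, plus strand) gave the steepest rise of the well-counted members with piericidin. It stood at 15.4, 16.1 and 16.02 CPM with DMSO and reached 144, 149 and 141 with piericidin, 98.7, 96.5 and 92.1 with antimycin and 133, 118 and 109 with oligomycin. All treated libraries were several-fold above DMSO, with log2 fold changes of 3.22 ± 0.0871, 2.64 ± 0.0863 and 2.93 ± 0.0865 (adjusted p = 1.08e-23, 1.22e-21 and 1.91e-22). Slc6a9 shares 1429 of its 5141 exonic bases with Ccdc24 on the opposite strand, 511 with Gm17114 and 46 with B4galt2, and the libraries did not keep strand, so reads in the shared bases cannot be assigned by strand. Ccdc24 itself had a mean level of 0.761 CPM in DMSO libraries, and of 0.77, 0.692 and 1.18 CPM under piericidin, antimycin and oligomycin.

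**Figure D1:**
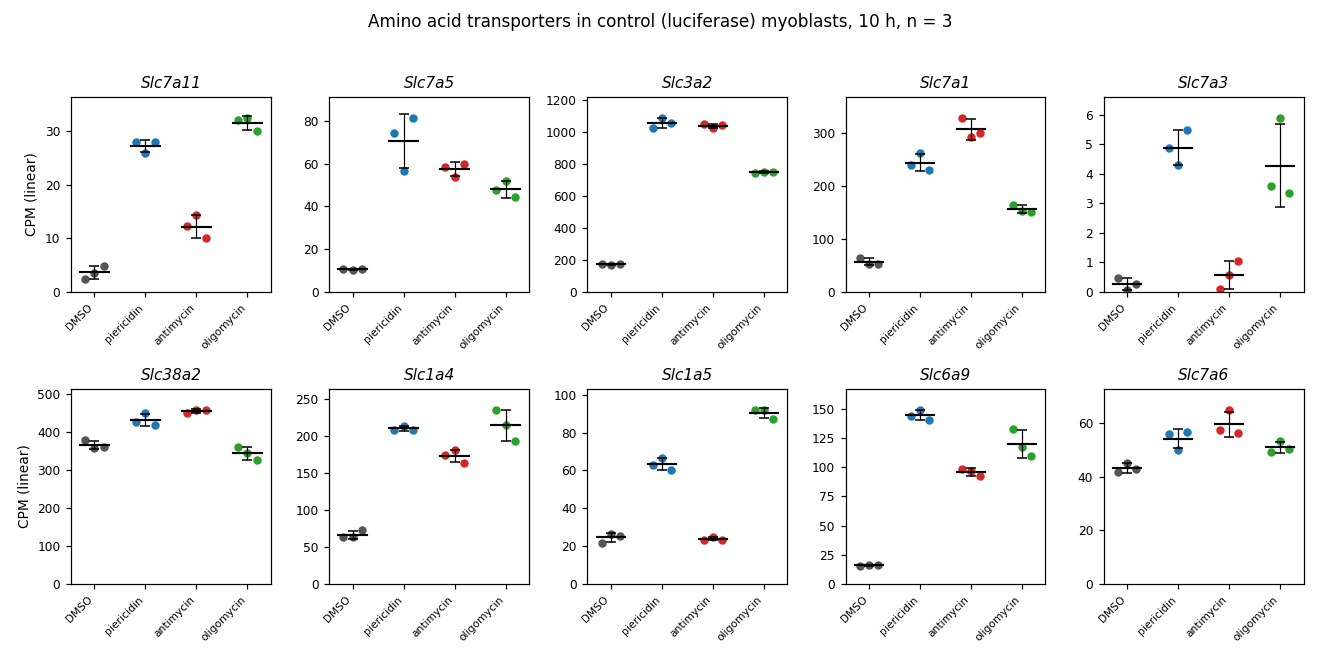
CPM on a linear axis from 0 of each of the 10 transporter genes in control (luciferase) myoblasts after 10 h of DMSO, piericidin, antimycin or oligomycin; points are the 3 libraries of a group and the bar their mean. Slc3a2 goes from 168 to 177 CPM in DMSO to at least 747 with any inhibitor, whereas Slc1a5 with antimycin stays in its DMSO range.

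The inhibitors were then set against each other. Between antimycin and piericidin 6 of the 9 carriers differed, 1 higher and 5 lower with antimycin (37.2% of all genes called), between antimycin and oligomycin all 9, 5 higher and 4 lower with antimycin (50%), and between piericidin and oligomycin 6, 5 higher and 1 lower with piericidin (39.2%). The largest differences were in Slc1a5 and Slc7a11, each lower with antimycin. Against piericidin the antimycin value was -1.396 ± 0.0932 (adjusted p = 3.98e-13) for Slc1a5 and -1.15 ± 0.17 (adjusted p = 2.41e-06) for Slc7a11, and against oligomycin -1.89 (adjusted p = 1.1e-16) and -1.34 (adjusted p = 9.28e-08). Slc7a1 was the only carrier called higher with antimycin than with both of the others, by 0.34 ± 0.067 (adjusted p = 0.000135) against piericidin and 1.01 ± 0.0678 (adjusted p = 1.89e-13) against oligomycin. Slc38a2 and Slc7a6 also had their largest log2 fold changes with antimycin. With a term for outer wells Slc38a2 passed against piericidin too (0.11, adjusted p = 0.0152 by edgeR). The heavy chain differed by -0.01 ± 0.0366 (adjusted p = 0.818) between antimycin and piericidin. These comparisons share libraries with those against DMSO. The call of Slc7a5 in either antimycin comparison (-0.29 and 0.29) was lost when any of 5 of the 6 libraries was left out, and that of Slc7a6 against oligomycin without antimycin replicate 2 (log2 fold change 0.15, adjusted p = 0.0964).

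Genes known as targets or members of the integrated stress response are given beside the carriers. Atf4, Ddit3, Asns, Chac1, Trib3 and Sesn2 all rose, 6 of 6, with each inhibitor in control myoblasts. For Atf4, the transcription factor itself, the log2 fold changes under piericidin, antimycin and oligomycin were 2.39, 2.78 and 1.66, and for Asns, asparagine synthetase, 2.17, 1.82 and 1.78. Of the 4 proliferation markers, all 4 were lower with antimycin in these myoblasts (median log2 fold change -0.78), 3 were lower and 1 higher with piericidin (-0.29), and 3 were lower with oligomycin (-0.32). The LbNOX line had 4 lower with antimycin (-0.83), 4 lower under piericidin (-0.17) and 3 lower under oligomycin (-0.32). In mitoLbNOX myoblasts 4 were lower with antimycin (-0.68) and 3 with piericidin (-0.22), and in NDI1 myoblasts 0 with piericidin (-0.11). Of the 6 myotube markers 1 had enough counts to be tested in myoblasts, Acta1, the skeletal muscle actin. In luciferase cells Acta1 had a mean of 16.4 CPM with DMSO. It rose to 28.9 CPM under piericidin, 85.6 under antimycin and 25.4 under oligomycin, log2 fold changes of 0.86 ± 0.141, 2.44 ± 0.138 and 0.65 ± 0.14 (adjusted p at most 0.000255). Acta1 also rose under piericidin, antimycin and oligomycin in the LbNOX line, with 1.005, 1.08 and 0.44 (adjusted p at most 0.0158), and under piericidin and antimycin in the mitoLbNOX line, with 0.84 and 1.90 (adjusted p at most 5.85e-05), and had -0.06 (adjusted p = 0.954) with piericidin in the NDI1 line. The part of these markers in the carriers' values was not tested.

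**Figure D2:**
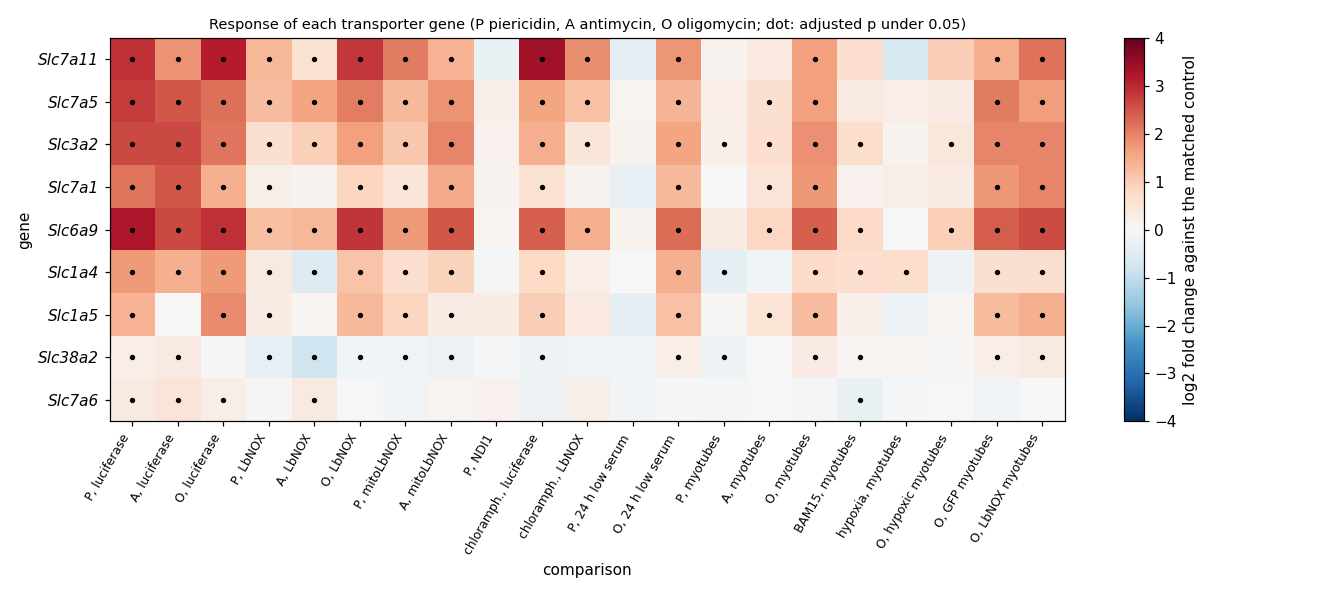
Log2 fold change of the 9 transporter genes tested (rows) against the matched control in 21 comparisons (columns), as colour from blue (lower) through white (0) to red (higher), with a dot where the adjusted p was under 0.05; Slc7a3 is not drawn. The columns of the 3 inhibitors in control myoblasts and of oligomycin in myotubes are mostly red, and those of piericidin in NDI1 myoblasts and in 24 h low-serum cells hold no dot.

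The enzyme lines were used to ask which part of the response changes when NADH is oxidized in another way. With DMSO 0 to 4 of the 9 carriers were called between an enzyme line and luciferase. LbNOX against luciferase gave 0 of 9 calls by edgeR (4 at an unadjusted p under 0.05; 0 of 9 by DESeq2) beside 2.68% of all genes, and mitoLbNOX 2 of 9 beside 1.77%, Slc1a4 with 0.23 (adjusted p = 0.0379) and Slc7a6 with 0.27 (adjusted p = 0.0281). In NDI1 myoblasts 4 of 9 were higher than in luciferase cells, beside 4.61% of all genes. Of these Slc7a11 held 9.69 and 9.57 CPM, above all 3 luciferase libraries, a log2 difference of 1.39 ± 0.212 (adjusted p = 4.45e-05), and Slc6a9 held 23.7 and 28.2 CPM, a difference of 0.70 ± 0.0958 (adjusted p = 8.63e-06). The other two, Slc1a4 and Slc3a2, differed by 0.47 and 0.31. With the DMSO groups of NDI1 and luciferase fitted alone, the adjusted p of Slc7a11 was 0.0542. The mitoLbNOX calls were lost in 4 or 5 of the 6 fits that left out a library.

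NDI1 left no called effect of piericidin on the carriers tested. The 2 piericidin libraries held 247 and 232 CPM of Slc3a2 against 213 and 218 with DMSO, 27.2 and 26.5 of Slc6a9 against 23.7 and 28.2, and 8.75 and 6.87 of Slc7a11 against 9.69 and 9.57. The groups overlapped for Slc6a9, while the piericidin libraries lay slightly above DMSO for Slc3a2 and slightly below it for Slc7a11. By edgeR 0 of 9 carriers and 0.00835% of all genes were called (3 carriers and 1005 genes had an unadjusted p under 0.05; by DESeq2 0 carriers and 6 genes were called). The test of the difference between lines, the interaction of piericidin with NDI1 against luciferase, called 8 of 9 carriers, all with a smaller response in NDI1 cells, beside 42.7% of all genes. It was -2.47 ± 0.0597 (adjusted p = 3.41e-24) for Slc3a2 and -3.14 ± 0.134 (adjusted p = 4.75e-18) for Slc6a9. For Slc7a6 the interaction was -0.18 at adjusted p = 0.176. Slc7a3 had 5 and 2 counts with DMSO and 3 and 2 with piericidin in NDI1 cells.

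LbNOX reduced the piericidin response without ending it. Of the 9 carriers 8 changed with piericidin in LbNOX myoblasts, 7 higher and 1 lower, beside 8.87% of all genes. The heavy chain went from 179.7, 186 and 173 CPM to 271, 281 and 279, a log2 fold change of 0.65 ± 0.0375 (adjusted p = 6.11e-14), and Slc7a1 from 64.3, 61.2 and 62.3 to 71.0, 76.6 and 68.3, or 0.23 ± 0.0704 (adjusted p = 0.041). In both genes the treated libraries were well below those of treated luciferase cells. Slc7a11 kept a log2 fold change of 1.34 ± 0.191 (adjusted p = 9.82e-06), from 3.98, 5.49 and 3.21 to 9.71, 11.4 and 11.1 CPM, Slc7a5 of 1.24 and Slc6a9 of 1.22, and Slc38a2 fell by 0.34 on the log2 scale (adjusted p = 4.99e-06). The interaction was negative and called in 9 of 9 carriers, beside 44.3% of all genes, from -0.32 for Slc7a6 (adjusted p = 0.097 without the filter on low counts) to -2.01 ± 0.122 (adjusted p = 2.73e-14) for Slc6a9. The counts of Slc7a3 were 0, 1 and 3 with DMSO and 2, 9 and 14 with piericidin. The piericidin calls of Slc1a5 (0.28) and Slc7a1 in LbNOX cells were lost in 6 and 5 of the 6 fits that left out a library.

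With mitoLbNOX 8 of 9 carriers also changed with piericidin, 7 higher and 1 lower (11.2% of all genes), and 9 of 9 interactions were called, all negative (42.8%). Slc3a2 held 190.1, 197 and 179 CPM with DMSO and 386, 400.1 and 392 with piericidin, a log2 fold change of 1.08 ± 0.0375 (adjusted p = 1.18e-19), and Slc6a9 20.6, 17.6 and 19.3 and 59.3, 67.5 and 59.7, or 1.72 ± 0.084 (adjusted p = 4.4e-16). The treated libraries of both genes lay above those of treated LbNOX cells and below those of treated luciferase cells, which is given as a description because the difference between the enzymes was not tested. The fall of Slc38a2 (-0.14) was lost in 5 of the 6 fits without a library.

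Antimycin in LbNOX myoblasts divided the carriers. Here 7 of 9 changed, 5 higher and 2 lower, beside 46.1% of all genes. Slc38a2 held 361, 342 and 336 CPM with DMSO and 206, 189 and 189 with antimycin, a log2 fold change of -0.79 ± 0.0465 (adjusted p = 1.2e-14), and Slc1a4 71.9, 79.9 and 73.6 and 53.4, 47.7 and 52.4, or -0.52 ± 0.0614 (adjusted p = 4.06e-08). Both had risen with antimycin in luciferase cells, and in LbNOX cells every treated library lay below every DMSO library. Slc7a5, from 9.17, 10.8 and 10.2 to 29.3, 26.7 and 31.2 CPM, and Slc6a9, from 12.5, 13.9 and 14.3 to 34.4, 31.7 and 34.2, still rose, by 1.56 ± 0.134 and 1.34 ± 0.0884 on the log2 scale (adjusted p = 6.05e-11 and 1.86e-13). Slc7a1, which was called higher with antimycin than with either of the other inhibitors in luciferase cells, was at 64.3, 61.2 and 62.3 CPM with DMSO and 67.6, 64.8 and 67.2 with antimycin, 0.13 ± 0.0707 (adjusted p = 0.146).

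The interaction of antimycin with LbNOX was called for 7 of 9 carriers beside 51.5% of all genes, negative for each. It was -2.35 ± 0.0995 (adjusted p = 2.84e-18) for Slc7a1, -1.94 ± 0.0859 (adjusted p = 7.56e-18) for Slc1a4 and -1.67 ± 0.0529 (adjusted p = 2.17e-21) for Slc3a2. Slc7a3 had 0, 1 and 3 counts with DMSO and 26, 14 and 13 with antimycin in LbNOX cells. The summed ratio was 17.3, over 4 DMSO counts in all, where luciferase cells had 2.16, and the difference was not tested. The rise of Slc7a11 (0.60, adjusted p = 0.0163) was lost without LbNOX DMSO replicate 1 or 3, with log2 fold changes down to 0.43 and adjusted p up to 0.108, and with only the groups compared in the fit (adjusted p = 0.0622). In the same comparison Atf4 fell by 0.51 on the log2 scale, while Asns (1.31) and Trib3 (2.57) rose.

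In mitoLbNOX myoblasts antimycin changed 8 of 9 carriers, 7 higher and 1 lower (47.7% of all genes), and 6 interactions were called, all negative (31.7%). Slc3a2 went from 190.1, 197 and 179 to 760.4, 679 and 711 CPM, Slc1a4 from 80.6, 77.7 and 75.5 to 146, 137 and 135 and Slc38a2 from 362, 351 and 319 to 302, 272 and 285. Of these the first 2 stayed well above DMSO and the last lay below it, with log2 fold changes of 1.97 ± 0.0383, 0.88 ± 0.0596 and -0.22 ± 0.046 (adjusted p at most 0.000183). For Slc6a9, at 2.49 against 2.64 in luciferase cells, the interaction was -0.15 (adjusted p = 0.351). The call of Slc1a5 (0.31) was lost without mitoLbNOX DMSO replicate 1 (log2 fold change 0.2, adjusted p = 0.101).

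Oligomycin kept most of its effect in LbNOX myoblasts, with a median log2 fold change over the carriers of 1.31 against 1.89 in luciferase cells. It changed 8 of 9 carriers, 7 higher and 1 lower, beside 35.2% of all genes. Slc7a11 went from 3.98, 5.49 and 3.21 to 29.3, 30.9 and 29.4 CPM, Slc6a9 from 12.5, 13.9 and 14.3 to 90.3, 98.6 and 103 and Slc3a2 from 179.7, 186 and 173 to 585, 523 and 555, without overlap. The interaction was called for 4 of 9 carriers beside 7.98% of all genes, all with a smaller response in LbNOX cells: Slc7a1 -0.60 ± 0.0983 (adjusted p = 0.000116), Slc1a5 -0.58 ± 0.127 (adjusted p = 0.00316), Slc1a4 -0.56 ± 0.0838 (adjusted p = 2.69e-05) and Slc3a2 -0.48 ± 0.0526 (adjusted p = 1.75e-07). For Slc6a9 the interaction was -0.07 (95% interval -0.304 to 0.166, adjusted p = 0.822), and a miss of the threshold does not show that the lines respond alike. Slc7a3 went from 0, 1 and 3 to 40, 13 and 51 counts, a summed ratio of 34.9 over 4 DMSO counts in all, with no test. The small fall of Slc38a2 (-0.12, adjusted p = 0.0382) was lost in 3 of the 6 fits that left out a library.

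**Figure D3:**
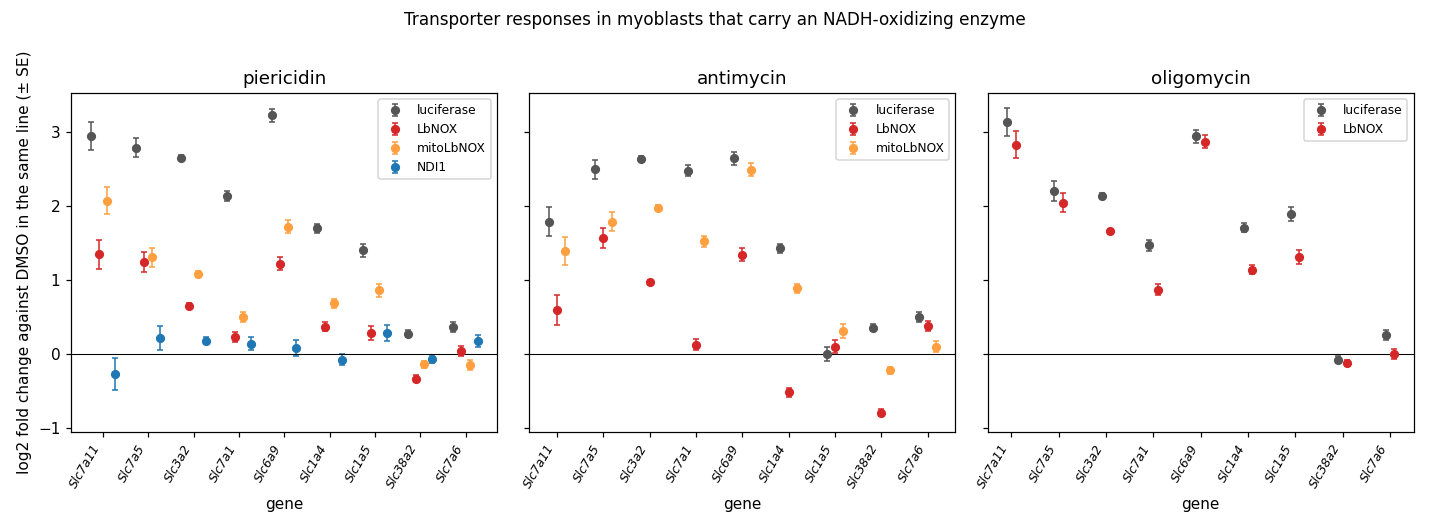
Log2 fold change against DMSO of the same line (± SE) of 9 transporter genes with piericidin, antimycin and oligomycin in myoblasts that carry luciferase (grey), LbNOX (red), mitoLbNOX (orange) or NDI1 (blue); Slc7a3 is left out for its low counts. NDI1 points lie near 0 with piericidin, and with antimycin the LbNOX points of Slc1a4 and Slc38a2 lie below 0.

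Chloramphenicol for 48 h, which removes proteins encoded by mitochondrial DNA by stopping their synthesis, changed 8 of 9 carriers in control myoblasts, 7 higher and 1 lower, beside 8.45% of all genes (n = 2 a group). Slc7a11 had its highest condition mean of the study, with 39.3 and 31.5 CPM against 3.43 and 3.71 in the matched DMSO libraries, a log2 fold change of 3.35 ± 0.202 (adjusted p = 1.91e-05). Slc6a9 went from 10.6 and 11.2 to 56.9 and 52.7 CPM, Slc3a2 from 149.8 and 152 to 427 and 372 and Slc7a5 from 7.91 and 8.06 to 20.2 and 25.9. None of these groups overlapped, and the log2 fold changes were 2.38 ± 0.161, 1.45 ± 0.0658 and 1.58 ± 0.182 (adjusted p at most 0.00106). Slc1a5 (0.99), Slc1a4 (0.80) and Slc7a1 (0.60) also rose. Slc7a3 had 4 and 2 counts with DMSO and 26 and 33 with chloramphenicol. The call of Slc38a2 (-0.21) was lost in 3 of the 4 fits that left out a library.

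In LbNOX myoblasts chloramphenicol raised 4 of 9 carriers, beside 0.931% of all genes: Slc7a11, from 4.43 and 3.22 to 12.9 and 14.6 CPM (1.86 ± 0.212, adjusted p = 0.00435), Slc6a9, from 9.24 and 12.6 to 32.3 and 25.4 (1.44 ± 0.167, adjusted p = 0.00473), Slc3a2, from 179 and 180.4 to 249.9 and 248 (0.50 ± 0.0653, adjusted p = 0.00941), and Slc7a5 (1.17 ± 0.184, adjusted p = 0.0242; 0.064 with only the groups compared in the fit). The interaction was called for 2 of 9 beside 0.530% of all genes, Slc3a2 with -0.95 ± 0.092 (adjusted p = 0.00734) and Slc1a4 with -0.53 ± 0.0901 (adjusted p = 0.0494). Leaving out chloramphenicol replicate 1 or 2 of LbNOX left 1 of the 4 LbNOX calls and neither interaction, leaving out DMSO replicate 2 of LbNOX left 2 of the 4, and each of the 8 libraries, when left out, cost the interaction of Slc1a4 (adjusted p 0.103 to 0.236).

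In myotubes most carriers rose with oligomycin and few changed with piericidin. Oligomycin raised 8 of the 9 carriers tested, beside 33.3% of all genes (16.9% higher), antimycin 5 of 9 (12.9%), and piericidin changed 3 of 9, 1 higher and 2 lower (8.99%). The median log2 fold change over the carriers was 1.64 with oligomycin, 0.5 with antimycin and 0.05 with piericidin. Slc7a3 had 2, 0 and 3 counts with DMSO and 11, 11 and 9 with oligomycin, a summed ratio of 5.89 over 5 DMSO counts in all, with no test. Of the 6 myotube markers 2 were higher and 2 lower with oligomycin (median log2 fold change -0.07), 2 higher and 3 lower with antimycin (-0.12) and with piericidin (-0.11), 3 higher and 1 lower with BAM15 (0.07), and 2 higher and 2 lower under 5% oxygen (-0.08). With each virus oligomycin gave 2 higher and 3 lower (-0.12). The 4 proliferation markers had adjusted p of 0.0693 or more in these comparisons by edgeR, except that all 4 fell under 5% oxygen (median -2.45), and the part of the markers in the carriers' values was not tested.

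Slc3a2 stood at 156, 158 and 157 CPM in myotubes with DMSO and at 563, 551 and 558 with oligomycin, 245, 244 and 253 with antimycin and 178, 185 and 180.0 with piericidin. The groups did not overlap, and the log2 fold changes against DMSO were 1.83 ± 0.0503 (adjusted p = 5.42e-19) with oligomycin, 0.67 ± 0.0494 (adjusted p = 6.48e-10) with antimycin and 0.21 ± 0.0498 (adjusted p = 0.0072) with piericidin. Without the filter on low counts the piericidin call of Slc3a2 was lost (adjusted p = 0.0534). Slc6a9 held 15.5, 19.3 and 18.1 CPM with DMSO and 90.6, 91.0 and 98.3 with oligomycin, 2.40 ± 0.108 (adjusted p = 6.23e-15), and 30.3, 33.4 and 28.9 with antimycin, 0.82 ± 0.11 (adjusted p = 9.54e-06). Slc7a1 went from 29.4, 22.2 and 23.5 to 81.6, 89.0 and 80.0 CPM with oligomycin, 1.75 ± 0.0987 (adjusted p = 5.7e-13), Slc7a5 from 15.8, 15.1 and 9.81 to 40.6, 39.3 and 46.2, 1.64 ± 0.166 (adjusted p = 2.73e-08), and Slc7a11 from 3.08, 3.52 and 1.70 to 6.88, 9.82 and 9.24, 1.64 ± 0.299 (adjusted p = 0.000126). Each of these treated groups lay above its DMSO range. Slc1a5 rose by 1.22 ± 0.135 with oligomycin and, unlike in myoblasts, by 0.55 ± 0.137 (adjusted p = 0.00777) with antimycin, from 6.57, 8.48 and 8.21 CPM to 16.1, 18.9 and 19.2 and 11.1, 10.9 and 12.02. The antimycin calls of Slc1a5 and Slc7a5 (0.64) were lost without DMSO replicate 1, and without antimycin replicate 2 or DMSO replicate 3, in that order of genes (adjusted p 0.0531 to 0.0925), and that of Slc1a5 also without the filter on low counts (0.54, adjusted p = 0.104).

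Slc1a4 and Slc38a2 were the carriers lower with piericidin and higher with oligomycin in myotubes. Slc1a4 was with DMSO at 61.1, 68.8 and 69.6 CPM, with piericidin at 52.8, 52.7 and 46.3, all below DMSO, and with oligomycin at 115, 107 and 115, all above it. The log2 fold changes were -0.39 ± 0.0804 (adjusted p = 0.00195) and 0.76 ± 0.0772 (adjusted p = 2.98e-08), and those of Slc38a2 -0.21 ± 0.0451 (adjusted p = 0.00379) and 0.31 ± 0.0448 (adjusted p = 5.44e-06). BAM15 brought Slc1a4 to 100.2, 113 and 105 CPM and 5% oxygen to 108, 106 and 112, both close to the oligomycin level, 0.68 ± 0.0772 (adjusted p = 3.51e-07) and 0.71 ± 0.0773 (adjusted p = 1.26e-07). It was the only carrier called under 5% oxygen, 1 of 9 beside 22.1% of all genes, and Slc3a2 (0.14) joined it when outer wells of the plate were given a term (adjusted p = 0.0414). BAM15 changed 5 of 9 carriers, 4 higher and 1 lower, beside 25.4%: Slc6a9 (0.77 ± 0.111, adjusted p = 1.25e-05), Slc3a2 (0.69 ± 0.0495, adjusted p = 1.47e-10), Slc1a4, Slc38a2 (0.12) and, lower, Slc7a6 (-0.30). The call of Slc38a2 was lost in 5 of 6 fits without a library, and that of Slc7a6 without BAM15 replicate 2 or DMSO replicate 1.

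Most carriers were lower in myotubes when oligomycin was combined with piericidin, BAM15 or 5% oxygen, the last begun the night before. Against oligomycin alone, piericidin with oligomycin lowered 7 of 9 (20.9% of all genes called), BAM15 with oligomycin 6 of 9 (26.1%) and 5% oxygen 8 of 9 (33.3%), and none rose in any of the 3. Slc6a9 held 90.6, 91.0 and 98.3 CPM with oligomycin, 30.8, 28.5 and 36.7 with piericidin added, 48.7, 51.1 and 50.1 with BAM15 added and 34.6, 35.7 and 32.4 at low oxygen. All 3 groups lay below oligomycin alone and above the DMSO range, with log2 differences of -1.55 ± 0.102, -0.90 ± 0.0992 and -1.43 ± 0.103 (adjusted p at most 1.29e-07). For Slc3a2 the same groups held 251, 274 and 258, 294, 325 and 302 and 224, 223 and 256 CPM, differences of -1.10, -0.86 and -1.24 from oligomycin (adjusted p at most 7.33e-13). Adding piericidin brought Slc1a4 to 64.3, 68.3 and 54.2 CPM, the DMSO level, -0.85 ± 0.0774 (adjusted p = 8.4e-09), whereas with BAM15 it stayed at 112, 119 and 119.9, 0.06 ± 0.0754 (adjusted p = 0.632). Slc7a11 was called with neither piericidin (-0.67, adjusted p = 0.0967) nor BAM15 (-0.62, adjusted p = 0.114), and Slc7a6 likewise (-0.02 and 0.01).

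Under 5% oxygen itself, oligomycin changed 2 of 9 carriers beside 4.26% of all genes, Slc6a9 with 0.95 ± 0.111 (adjusted p = 3.64e-06) and Slc3a2 with 0.46 ± 0.0495 (adjusted p = 1.1e-06). The difference of oligomycin between low and normal oxygen rests on the comparison of oligomycin libraries above, and the interaction was not tested. The 4 proliferation markers were lower in hypoxic DMSO myotubes, 4 of 4 with a median log2 fold change of -2.45, and their part in these values was not tested. The call of Slc1a4 against oligomycin at normal oxygen (-0.24) was lost without hypoxic oligomycin replicate 1 or 2 (adjusted p 0.0545 and 0.0673).

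**Figure D4:**
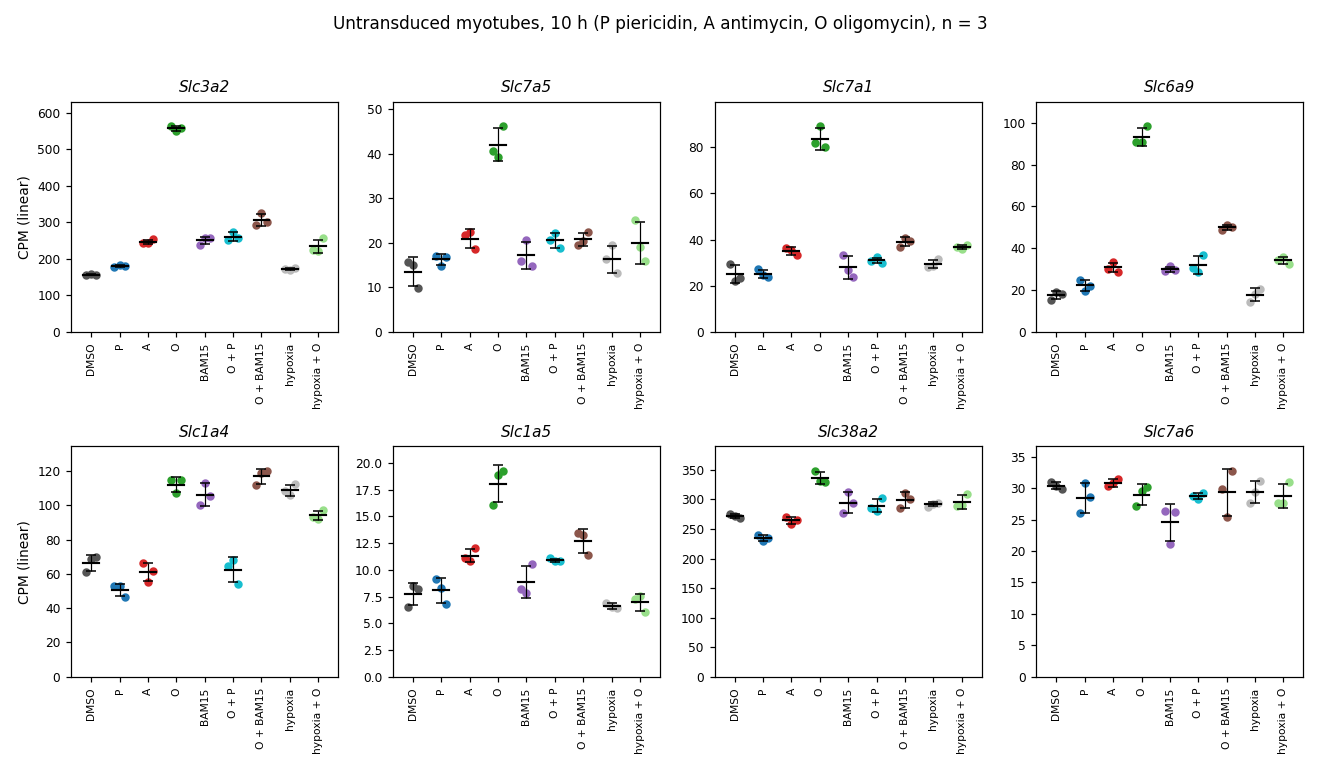
CPM on a linear axis from 0 of 8 of the transporter genes (Slc7a11 and Slc7a3 are not drawn) in untransduced myotubes after each treatment; points are the 3 libraries of a group and the bar their mean. Slc3a2 with oligomycin, at 551 to 563 CPM, lies above every other myotube treatment, while Slc1a4 with BAM15 or 5% oxygen alone, at 100 to 113 CPM, lies near its oligomycin level.

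In myotubes that carried an adenovirus, LbNOX did not alter the oligomycin response detectably. Oligomycin raised 8 of 9 carriers with the GFP virus (25.9% of all genes called) and 8 of 9 with the LbNOX virus (32.0%). Slc3a2 went from 149 and 137 to 582 and 539.8 CPM with GFP and from 138, 134 and 143 to 527, 533 and 547 with LbNOX, 1.959 ± 0.0652 and 1.94 ± 0.0533 on the log2 scale, and Slc6a9 from 17.1 and 18.6 to 94.7 and 99.5 and from 13.4, 16.7 and 14.2 to 85.4, 93.02 and 97.8. By edgeR the interaction was called for 0 of 9 carriers and 0% of all genes (0 carriers and 525 genes at an unadjusted p under 0.05; by DESeq2 0 carriers and 1 gene), and for Slc3a2 it was -0.02 (95% interval -0.178 to 0.143) and for Slc6a9 0.19 (-0.087 to 0.47). LbNOX against GFP with DMSO likewise gave 0 of 9 carriers and 0.0242% of all genes (2 carriers and 748 genes at an unadjusted p under 0.05; by DESeq2 0 carriers and 18 genes). The call of Slc7a11 in GFP myotubes (1.45) was lost without GFP DMSO replicate 1 (adjusted p = 0.0551).

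Post-mitotic cells after 24 h of low serum responded to oligomycin, with no called response to piericidin. Piericidin gave 0 calls in 9 carriers by edgeR beside 2.75% of all genes (2 carriers and 1862 genes at an unadjusted p under 0.05; 1 carrier, Slc7a1 with -0.33, by DESeq2), and oligomycin raised 8 of 9 beside 20.7%. Slc3a2 held 209, 225 and 236 CPM with DMSO, 253, 232 and 249.1 with piericidin and 641, 672 and 631 with oligomycin, and Slc6a9 21.0, 20.3 and 24.0, 23.4, 25.8 and 23.4 and 105, 104 and 91.7. For both genes the piericidin libraries overlapped DMSO and the oligomycin libraries stood apart, with oligomycin log2 fold changes of 1.56 ± 0.0534 (adjusted p = 3.65e-09) and 2.23 ± 0.088 (adjusted p = 1.03e-08). Slc1a4 rose by 1.41 ± 0.074 (adjusted p = 1.21e-07), from 43.8, 44.8 and 39.1 to 118, 109.6 and 105 CPM. With oligomycin 2 of the 4 proliferation markers were lower (median -0.3), and of the 6 myotube markers 1 was higher and 3 were lower (-0.13), as 1 and 3 were with piericidin (-0.09). Their part in these values was not tested.

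Levels at rest shifted with the state of the cells. Cells after 24 h of low serum and luciferase myoblasts, both with DMSO, differed in 8 of 9 carriers beside 63.6% of all genes, 3 higher and 5 lower in low serum. Slc1a5 was at 8.95, 8.55 and 10.6 CPM against 21.9, 26.4 and 25.6 in myoblasts, -1.38 ± 0.124 (adjusted p = 7.02e-11), and Slc7a5 at 15.6, 14.5 and 20.8 against 10.5, 10.2 and 10.8, 0.70 ± 0.154 (adjusted p = 0.000237). The lower ones beside Slc1a5 were Slc7a6 (-0.67), Slc1a4 (-0.64), Slc7a1 (-0.56) and Slc38a2 (-0.24), and the higher ones beside Slc7a5 were Slc6a9 (0.47) and Slc3a2 (0.38). State here goes together with serum, doxycycline and the luciferase transgene, which cannot be told apart, and in bulk RNA fewer cells of a type and less RNA per cell cannot be told apart either. Myotubes differed from the 24 h cells in 6 of 9 carriers, 2 higher and 4 lower, beside 35.6%, with Slc1a4 back at 61.1, 68.8 and 69.6 CPM from 43.8, 44.8 and 39.1 (0.68 ± 0.0786, adjusted p = 5.77e-08). The calls of Slc7a6 (0.20), Slc6a9 (-0.27) and Slc38a2 (-0.15) in that comparison were lost in 3, 2 and 1 of the 3 fits without a replicate, and those of Slc38a2, Slc6a9 and Slc7a6 also with a term for outer wells.

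The response to each inhibitor was then compared between myotubes and luciferase myoblasts. As for levels at rest, state goes together with serum, doxycycline and the luciferase transgene, which cannot be told apart. For piericidin all 9 interactions were called and negative (46.5% of all genes), for antimycin 9 of 9, 8 negative and 1 positive (47.9%), and for oligomycin 8 of 9, 7 negative and 1 positive (29.0%). With piericidin the difference was largest for Slc6a9, -2.85 ± 0.13 (adjusted p = 1.01e-16), and Slc7a11, -2.76 ± 0.36 (adjusted p = 2.89e-07), and was -2.39 ± 0.0558 (adjusted p = 1.47e-23) for Slc3a2. With antimycin the positive value was that of Slc1a5, 0.59 ± 0.178 (adjusted p = 0.00717), and with oligomycin that of Slc38a2, 0.40 ± 0.0639 (adjusted p = 2.4e-05). With oligomycin the differences were smaller in size than with piericidin, -0.30 ± 0.0547 (adjusted p = 0.000124) for Slc3a2 and -0.94 ± 0.107 (adjusted p = 8.51e-08) for Slc1a4, and Slc7a1 had 0.29 ± 0.127 (adjusted p = 0.0947). For Slc7a11, Slc1a5 and Slc38a2 they were larger in size than with antimycin (-1.48, -0.66 and 0.40 against -1.34, 0.59 and -0.34). Such differences between inhibitors were not tested. Leaving out replicates of a number from both states cost the call of Slc7a6 with oligomycin in 3 of 3 fits, of Slc7a5 with oligomycin and Slc7a11 with antimycin in 2 of 3 and, in 1 of 3, those of Slc7a6 with piericidin, Slc1a5 with antimycin and Slc7a11 and Slc1a5 with oligomycin. Without the filter on low counts the calls of Slc7a6 were lost with piericidin (adjusted p = 0.0571), antimycin (0.0563) and oligomycin (0.297), and with outer wells as a term or the groups compared alone that of Slc7a5 with oligomycin (0.346 and 0.0527).

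Over all 35 conditions, carriers were set beside the genes whose mean log2(CPM + 1) followed theirs most closely. These values are descriptions over conditions that share cells, medium and often controls. Slc7a5, Slc3a2 and Slc6a9 formed the tightest group, with a Pearson r of 0.97 between Slc7a5 and Slc3a2 and 0.96 of either with Slc6a9. For Slc7a5 the nearest of 9686 genes by Pearson r was its own heavy chain Slc3a2 (r = 0.966, Spearman rho = 0.954). By Spearman rho Slc6a9 was nearest (0.957). Outside the carriers, Slc6a9 was closest to Car6 (r = 0.967), a secreted carbonic anhydrase, Slc3a2 to Sars (r = 0.963), the seryl-tRNA synthetase, and Slc7a1 to Yars (r = 0.971) and Cars (r = 0.969), the tyrosyl- and cysteinyl-tRNA synthetases. Slc7a11 was closest to Cth (r = 0.933), which makes cysteine from cystathionine, then Lars (0.92) and Aldh1l2 (0.918), a mitochondrial folate enzyme. Slc1a5 was closest to Steap1 (r = 0.976), Slc7a3 to Adh5 (0.913), Slc1a4 to Mycbp2 (0.892) and Slc38a2 to Crebbp (0.886). The lowest values among carriers were 0.13 between Slc6a9 and Slc7a6, 0.16 between Slc7a3 and Slc38a2 and 0.18 between Slc7a5 and Slc7a6, although Slc7a5 and Slc7a6 share the heavy chain. All values of Slc7a3 are limited by its low counts, with a median of 0.358 CPM over the libraries.

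**Figure D5:**
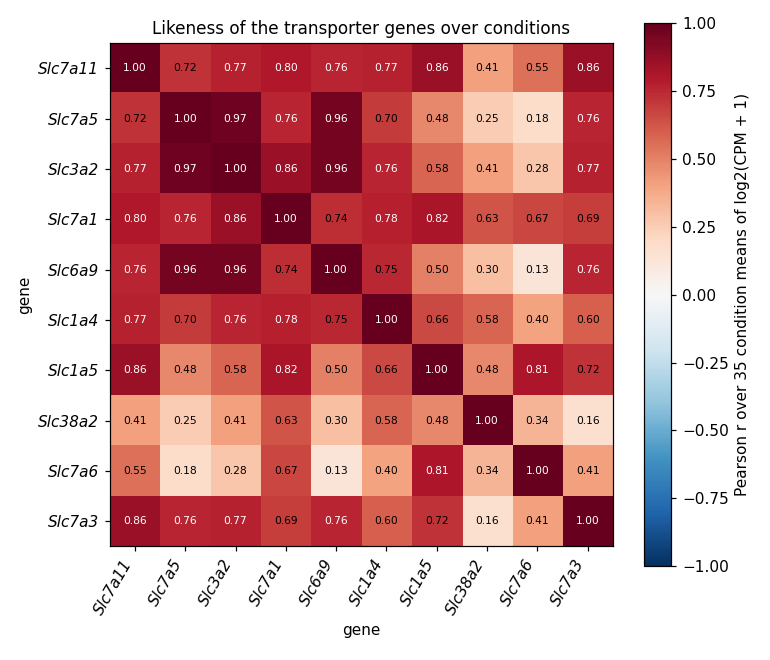
Pearson r between the 10 transporter genes over the means of log2(CPM + 1) in 35 conditions, as colour from blue (-1) to red (1) with the value printed. The block of Slc7a5, Slc3a2 and Slc6a9 holds values of 0.96 and 0.97, and Slc38a2 and Slc7a6 have the palest rows. The row of Slc7a3 rests on low counts.

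The carriers also differed in their range over the 96 libraries. Slc7a11 ran from 1.04 to 39.3 CPM, Slc7a5 from 7.91 to 81.3, Slc3a2 from 134 to 1089 and Slc1a5 from 5.75 to 91.9. Slc38a2 ran from 189 to 459 CPM and Slc7a6 from 21.1 to 64.9. The ratio of the highest to the lowest condition mean was 26.2 for Slc7a11, 14.7 for Slc7a1, 13.9 for Slc1a5, 13.3 for Slc6a9, 8.85 for Slc7a5, 7.65 for Slc3a2 and 5.03 for Slc1a4, against 2.56 for Slc7a6 and 2.34 for Slc38a2. The lowest Slc38a2 mean, 195 CPM, was that of antimycin in LbNOX myoblasts and the highest, 456 CPM, that of antimycin in luciferase myoblasts.

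Other amino acid carriers went in both directions. Of 34 further plasma membrane carriers 7 were tested in myoblasts, and 2 rose and 5 fell with piericidin, 2 rose and 4 fell with antimycin, and 1 rose and 4 fell with oligomycin. Over all genes 61.7% were called with piericidin (30.9% higher), 63.2% with antimycin (32.1% higher) and 50.8% with oligomycin (24.5% higher). Slc38a1, a sodium-coupled carrier of glutamine, rose by 1.17 ± 0.0595, 1.00 ± 0.0594 and 1.14 ± 0.0594 in that order of inhibitors (adjusted p at most 3.09e-15). Slc1a3, a glutamate carrier, had -2.27 ± 0.235, -1.45 ± 0.219 and -1.25 ± 0.213 (adjusted p at most 1.22e-05). Slc7a2, a cationic carrier like Slc7a1, went the opposite way from it with piericidin, -1.65 ± 0.247 (adjusted p = 1.1e-06), as did Slc43a1, a carrier of large neutral amino acids like Slc7a5, with antimycin, -1.34 ± 0.216 (adjusted p = 3.54e-06). Of 10 lysosomal carriers 8 were tested, of which 2 rose and 3 fell with piericidin, 1 rose and 2 fell with antimycin, and 1 rose and 3 fell with oligomycin, beside the same shares of all genes. With so few genes, nothing particular to either list is read from these counts. Slc38a7 rose by 1.86, 2.38 and 1.91 (adjusted p at most 1.83e-16), and Mfsd12 had -1.24, -1.69 and -1.47 (adjusted p at most 3.28e-05). Slc36a4 was lower with each inhibitor in myoblasts (-1.01, -1.16 and -1.22) and with oligomycin in myotubes (-1.05 ± 0.262, adjusted p = 0.00301). In myotubes 10 of the 34 were tested with oligomycin, of which 4 rose and 1 fell, and of the lysosomal carriers 2 rose and 1 fell, beside 33.3% of all genes called (16.9% higher).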

How the data were processed

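RNA of 96 C2C12 samples was sequenced with a Smart-seq2 protocol that does not keep strand. Per the labels and methods, the authors made reads with bcl2fastq 2.20.0.422, estimated transcript levels with kallisto 0.44 on the mouse transcriptome (mm10) with the transgenes added, and summed them by gene, and they deposited these estimated counts as whole numbers, not normalized. Here edgeR 4.0.16 (R 4.3.3) fitted quasi-likelihood models with TMM scaling in 6 fits of groups, on genes that reached 16 counts in all replicates of some condition; p-values were adjusted by Benjamini-Hochberg across every gene in the fit, with a threshold of 0.05. The standard error of a log2 fold change was taken as its size over the square root of F. Samples were grouped by their labels. The members and the other gene lists were chosen with earlier results of these data known. All 10 members are named, with other carriers named at an absolute log2 fold change of at least 1 and a mean of at least 50 counts, up to 6 a comparison, and the 3 genes most like each member. Per-sample depth was 6458295 to 15366745 counts.

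In simulated data, the test recovered 93 of 100 genes changed by 1 on the log2 scale and 100 of 100 changed by 2 for piericidin in control myoblasts, with 7 false calls among 11607 genes; for chloramphenicol it recovered 88 and 97 of 100 with 4 false calls among 11488, for oligomycin in myotubes 96 and 100 with 16 among 12240, and for the interaction of antimycin and LbNOX 80 and 98 with 7 among 11595. The simulated counts had the same spread for every gene and no effects of single samples. Only 200 genes were changed in each simulation, so these rates need not hold for the real libraries. Alternatives were DESeq2 1.42.0 and its size factors, no filter, only the groups compared, a term for outer wells, the replicate number as a block and leaving out each library. In comparisons between cell states all libraries of a replicate number were left out together instead. Positions are from GENCODE on GRCm38, promoters from RefSeq. Python 3.11.15 with pandas 2.3.3 and matplotlib 3.10.9 was used for summed ratios, promoter matches and plots.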

Additional observations from a re-analysis of the deposited data

Results flagged for a closer look

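The effect of an inhibitor on these carriers differed between cell lines or cell states in 71 values, each by its own interaction test (edgeR, adjusted p under 0.05), and each is given as a difference of log2 fold changes. For piericidin in LbNOX against luciferase myoblasts these were -1.59 for Slc7a11, -1.54 for Slc7a5, -2.0 for Slc3a2, -1.90 for Slc7a1, -0.61 for Slc38a2, -1.32 for Slc1a4, -1.11 for Slc1a5, -2.01 for Slc6a9 and -0.32 for Slc7a6. In mitoLbNOX myoblasts the piericidin values were -0.87 for Slc7a11, -1.48 for Slc7a5, -1.57 for Slc3a2, -1.63 for Slc7a1, -0.41 for Slc38a2, -1.01 for Slc1a4, -0.54 for Slc1a5, -1.51 for Slc6a9 and -0.51 for Slc7a6. In NDI1 myoblasts they were -3.21 for Slc7a11, -2.57 for Slc7a5, -2.47 for Slc3a2, -1.99 for Slc7a1, -0.34 for Slc38a2, -1.77 for Slc1a4, -1.11 for Slc1a5 and -3.14 for Slc6a9.

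Antimycin gave 7 such values with LbNOX: Slc7a11 -1.19, Slc7a5 -0.93, Slc3a2 -1.67, Slc7a1 -2.35, Slc38a2 -1.15, Slc1a4 -1.94 and Slc6a9 -1.30. With mitoLbNOX there were 6, of -0.70 for Slc7a5, -0.67 for Slc3a2, -0.95 for Slc7a1, -0.58 for Slc38a2, -0.54 for Slc1a4 and -0.40 for Slc7a6. Oligomycin with LbNOX gave -0.48 for Slc3a2, -0.60 for Slc7a1, -0.56 for Slc1a4 and -0.58 for Slc1a5, and chloramphenicol with LbNOX -0.95 for Slc3a2 and -0.53 for Slc1a4.

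Between myotubes and luciferase myoblasts the piericidin effect differed by -2.76 for Slc7a11, -2.47 for Slc7a5, -2.39 for Slc3a2, -2.08 for Slc7a1, -0.43 for Slc38a2, -2.04 for Slc1a4, -1.31 for Slc1a5, -2.85 for Slc6a9 and -0.40 for Slc7a6. The antimycin effect differed by -1.34 for Slc7a11, -1.80 for Slc7a5, -1.92 for both Slc3a2 and Slc7a1, -0.34 for Slc38a2, -1.49 for Slc1a4, 0.59 for Slc1a5, -1.78 for Slc6a9 and -0.43 for Slc7a6. The oligomycin effect differed by -1.48 for Slc7a11, -0.56 for Slc7a5, -0.30 for Slc3a2, 0.40 for Slc38a2, -0.94 for Slc1a4, -0.66 for Slc1a5, -0.53 for Slc6a9 and -0.31 for Slc7a6. Slc1a5 and Slc38a2 are the carriers whose effect was larger in myotubes, with antimycin and oligomycin in that order. In these values state goes together with serum, doxycycline and the luciferase transgene.

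Piericidin in virus-carrying myotubes entered no comparison of the report, and every piericidin library lay outside the DMSO range of the same virus for 8 values, which were not tested. These were 5 of 9 carriers with the GFP virus, where 42.3% of 12397 genes lay so, and 3 of 9 with the LbNOX virus, where 26.8% did. With the GFP virus the mean was 1.32 times the DMSO mean for Slc7a11, 1.29 for Slc7a5, 1.31 for Slc3a2, 0.924 for Slc38a2 and 0.71 for Slc1a4. With the LbNOX virus it was 1.28 times for Slc3a2, 0.718 for Slc1a4 and 1.35 for Slc6a9. Slc3a2 was the higher and Slc1a4 the lower with both viruses.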

How the results depend on the processing

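In 168 alternative fits 89 of 4855 values of the 9 members tested changed sign, and none of these was called in either fit. The number of members called stayed within 1.5 times in all but these cases, whose cause was not tested. With DESeq2 size factors, 1 member was called for the interaction of chloramphenicol and LbNOX (2 in the report) and 1 for mitoLbNOX against luciferase (2). With DESeq2 itself, 1 was called for piericidin in 24 h low-serum cells (0) and 2 for chloramphenicol in LbNOX myoblasts (4), where 2 members had no adjusted p. Without the filter on counts, 3 were called for BAM15 in myotubes (5), 4 for the interaction of chloramphenicol and LbNOX (2), 0 for mitoLbNOX against luciferase (2), 3 for myotubes against 24 h low-serum cells (6) and 1 for piericidin in 24 h low-serum cells (0). Fitted on the groups compared alone, mitoLbNOX against luciferase had 0 calls (2). A term for outer wells gave 2 for hypoxia in myotubes (1), 1 for LbNOX against luciferase in myoblasts (0) and 3 for myotubes against 24 h low-serum cells (6); it could not be estimated among the 24 h low-serum cells.

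Replicate numbers gave little sign of pairing: the mean correlation of same-numbered samples' deviations lay between -0.048 and 0.058 over the 6 fits. Samples that correlated best with their own number were at most 17 of 37, in the 10 h myoblast fit, and 16 of 33 in the fit of the cell states. A weak pairing is not excluded by this. The replicate block gave 2 members called for hypoxia in myotubes (1 without it) and 1 for the interaction of chloramphenicol and LbNOX (2), and kept 392 of 396 member values on their side of the threshold.

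Leaving out a library moved the count for BAM15 between 3 (without BAM15 replicate 2) and 5, for chloramphenicol in LbNOX myoblasts between 1 and 3 (4 with all libraries), for hypoxia between 1 and 2 (without DMSO replicate 1), for the chloramphenicol interaction between 0 and 1 (2), for mitoLbNOX against luciferase between 0 and 2, and for piericidin in 24 h low-serum cells between 0 and 1 (without DMSO replicate 1). In comparisons between cell states all libraries of a replicate number were left out together. This moved the count for the interaction of oligomycin with cell state between 5 (without replicate 2) and 7 (8), and for myotubes against 24 h low-serum cells between 3 (without replicate 1) and 6. Of 257 called member values, 34 lost the call in at least 1 of these fits of either kind and 223 in none. DESeq2 gave no adjusted p for 1, 2 and 5 members in the chloramphenicol comparisons of luciferase cells, of LbNOX cells and of their interaction, for 4 in LbNOX against GFP myotubes and for 2 in piericidin in 24 h low-serum cells. Calls lost numbered 20 of 396 values without the filter on counts, 15 of 396 with the groups compared alone, 10 of 378 with the term for outer wells, 6 of 396 with DESeq2 size factors and 4 of 382 with DESeq2. Depth limits Slc7a3, which reached 16 counts in all replicates of no DMSO group.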

Other observations

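With BAM15 in myotubes 6 of 6 stress response genes rose, with a median log2 fold change of 1.28 where the 9 carriers had 0.36, and the difference between the lists was not tested. The values ran from 0.32 ± 0.0565 (adjusted p = 0.000152) for Asns to 2.53 ± 0.0925 (adjusted p = 6.25e-16) for Trib3, which ATF4 induces. Under 5% oxygen 4 of the 6 stress response genes rose, Trib3 by 0.81 ± 0.0998 (adjusted p = 8.29e-07), while Asns had -0.04 ± 0.0569 (adjusted p = 0.646) and Slc1a4 was the called carrier. In NDI1 myoblasts with DMSO 5 of the 6 genes were higher than in luciferase cells, as were Slc7a11, Slc6a9, Slc1a4 and Slc3a2. Trib3 (1.79 ± 0.0994, adjusted p = 8.79e-14) and Chac1 (0.84 ± 0.12, adjusted p = 1.68e-05), which degrades glutathione, had the largest differences among these 6 genes. In mitoLbNOX myoblasts with DMSO 3 of the 6 were also higher than in luciferase cells, and in LbNOX myoblasts 0 were.

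In LbNOX myoblasts with antimycin, Atf4 mRNA fell to a mean of 154 CPM from 225 (-0.51 ± 0.0324, adjusted p = 7.49e-14), as Slc1a4 and Slc38a2 did, whereas Trib3, Asns and Sesn2 (1.38 ± 0.0983, adjusted p = 1.04e-12) rose with Slc7a5 and Slc6a9. In control myoblasts all of these genes had risen with antimycin.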
